A study of Mus musculus with 6 samples.

Results

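The genes described here encode 10 enzymes that make NADPH or feed its production: the pentose phosphate pathway enzymes G6pdx, Pgls, Pgd, Rpia, Tkt and Taldo1, the cytosolic malic enzyme Me1, the NADP-dependent isocitrate dehydrogenases Idh1 and Idh2, and the proton-driven transhydrogenase Nnt. They were chosen by name for their place in NADPH metabolism, with earlier results of these data known. They were found through the NCBI gene identifiers of the deposited tables. They are 10 of 17254 genes with reads in any library, and all of them were among the 11717 genes tested.

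RNA-seq was performed on 6 libraries of mouse neural stem and progenitor cells (NSPCs), called NPCs or neural progenitor cells in the labels, 2 libraries per group. All cultures were kept for 48 h in N2 medium with EGF and bFGF, either without treatment (control), with 5 µM paraquat (PQ), a redox cycler that makes superoxide inside cells, or with 5 mM N-acetylcysteine (NAC), a thiol antioxidant. The genotype is written "Ink/Ark knockout" in the labels of control replicate 1 and PQ replicate 1, which also name the strain C57BL/6, and the other 4 labels give neither. The paper describes an immortalized NSPC culture derived from neonates and null for Ink/Arf, a genotype that the control cells share with the treated ones. The culture is given as a mixture of neural stem cells, neuronal precursors and oligodendroglial progenitors. The paper states that the sequencing was replicated but not whether from separate cultures, and the labels do not say either, so the p-values measure only the spread between these libraries, which may be technical.

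Control replicate 1 and PQ replicate 1 are labelled as one batch, with Illumina library protocols and mm9, and control replicate 2, PQ replicate 2 and both NAC libraries as another, with BGISEQ-500 and mm10. All 6 deposited tables nevertheless gave the same transcript length for 10547 of 10547 genes with a single transcript. The paper describes only Illumina sequencing and alignment to mm9 with TopHat, which differs from the labels of the second batch. Which pipeline made each table could not be settled, so the batch names used below are those of the labels. Between 9680436 and 10698241 expected counts were assigned to genes in each library. Within groups, log-scale values of the 11717 genes correlated at r of 0.987 for control, 0.990 for PQ and 0.991 for NAC, and between groups at 0.965 to 0.979, across genes that are not independent replicates.

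NADPH is the electron donor for glutathione and thioredoxin reductases, which remove peroxides, and for the synthesis of fatty acids, sterols and deoxyribonucleotides. The oxidative branch of the pentose phosphate pathway makes NADPH while turning glucose 6-phosphate into ribulose 5-phosphate, and the non-oxidative branch rearranges the sugar phosphates reversibly between ribose 5-phosphate and glycolysis. In the brain and in cultured neural cells the pathway is known for its part in defence against oxidative stress, with malic enzyme and the isocitrate dehydrogenases as further NADPH sources in cytosol and mitochondria.

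Levels are given as FPKM, fragments scaled by transcript length and by library total, which allows genes of different length to be compared. By mean FPKM over the 6 libraries the order was Taldo1 (168), Tkt (149), Idh2 (143), Me1 (137), Idh1 (120), G6pdx (67.3), Pgls (63.1), Pgd (52.9), Nnt (24.4) and Rpia (3.97). The ranges over libraries overlapped between neighbours from Taldo1 down to Idh1 and again among G6pdx, Pgls and Pgd. They did not overlap between Idh1 and G6pdx, between Pgd and Nnt, or between Nnt and Rpia. Taldo1 stood above 96.8% of the tested genes in mean FPKM and Rpia, the isomerase that makes ribose 5-phosphate, above 18.3%.

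In PQ against control, 3 of the 10 genes were higher (G6pdx, Pgd and Me1) and 3 were lower (Rpia, Tkt and Idh2) by edgeR's quasi-likelihood test at a Benjamini-Hochberg adjusted p under 0.05. Of all tested genes, 9.76% were higher and 9.45% lower in that comparison. In NAC against control, none of the 10 was higher and 4 were lower (G6pdx, Tkt, Taldo1 and Idh2), where 9.01% of all tested genes were higher and 9.64% lower. Before adjustment Me1 was under the threshold as higher with NAC in the edgeR fit, 1 gene of the 10, and DESeq2 and limma called none of them higher. In PQ against NAC, 5 were higher (G6pdx, Pgd, Tkt, Taldo1 and Idh2) and Rpia was lower, beside 16.0% and 15.7% of all tested genes. The first 2 comparisons share the control libraries, and the third shares its libraries with both.

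The PQ counts fell whichever library of the comparison was left out, and so did the number of all tested genes called. For the genes called with PQ, the log2 fold changes against control kept their sign in all alternatives described below. They ranged from 0.26 to 0.38 for G6pdx, 0.23 to 0.48 for Pgd and 0.26 to 0.36 for Me1. For Rpia the range was -1.25 to -0.75, for Tkt -0.33 to -0.25 and for Idh2 -0.43 to -0.39. With 1 library left out, 4 of the 10 genes were called in PQ against control without control replicate 1 or without control replicate 2, and 2 without PQ replicate 1 or without PQ replicate 2, where the lone library of a group is assumed to vary like the other groups. In the 4 libraries labelled BGISEQ-500 alone, 1 of the 10 was called, with 1 control and 1 PQ library and the spread taken from the NAC libraries. In PQ against NAC the count of 6 became 3 without PQ replicate 1 or without PQ replicate 2, and 4 without NAC replicate 1 or without NAC replicate 2. In NAC against control the count of 4 became 3 without NAC replicate 1 and stayed at 4 without any of the other 3 libraries. Since the libraries are bulk RNA, a change in the make-up of the culture and a change in RNA per cell cannot be told apart.

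**Figure D1:**
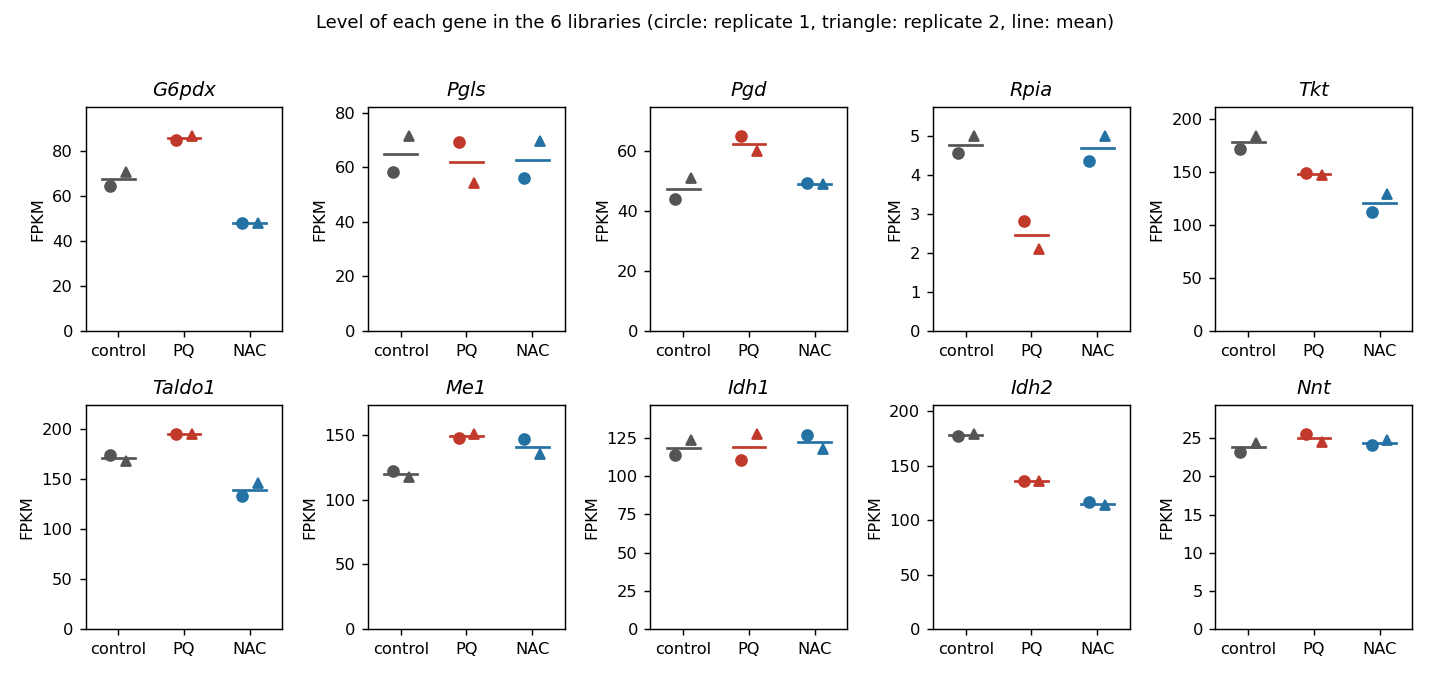
FPKM (vertical axes, each starting at 0) of each of the 10 genes in the control, PQ and NAC libraries, with a circle for replicate 1, a triangle for replicate 2 and a line for the group mean. G6pdx lies between 64.6 and 70.9 in control, at 85.2 and 86.8 in PQ and at 47.9 and 48.2 in NAC, and Idh2 is highest in both control libraries.

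The oxidative branch opens with G6pdx (gene 14381, chrX:74409483-74428880 in GRCm38.p6), glucose 6-phosphate dehydrogenase, which catalyses the first and committed NADPH-forming step. Its promoter is shown because it was one of 3 members, with Pgd and Me1, that rose with PQ and also held the antioxidant response element core TGACNNNGC, the motif bound by NRF2. The motif was searched on both strands in RefSeq promoter windows of GRCm38.p6 reaching from 250 bases before a start site to 50 bases after it, and 9 of the 10 members had a window, all but Nnt. It was present in 3 of these 9 genes, in 16.9% of the 9339 tested genes with a window and in 12.4% of all 32851 windows. The sequences are stretches of these windows, read 5′ to 3′ on the minus strand of the chromosome, which is the coding strand of all 3 genes, with the match in capitals. They cover chrX:74428909-74429037 for G6pdx, chr4:149166071-149166179 for Pgd and chr9:86695912-86696020 for Me1.
G6pdx: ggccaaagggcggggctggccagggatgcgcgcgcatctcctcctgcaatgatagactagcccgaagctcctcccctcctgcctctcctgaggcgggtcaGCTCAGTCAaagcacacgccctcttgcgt
Pgd: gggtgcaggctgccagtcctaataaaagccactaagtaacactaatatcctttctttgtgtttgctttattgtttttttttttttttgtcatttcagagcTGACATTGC
Me1: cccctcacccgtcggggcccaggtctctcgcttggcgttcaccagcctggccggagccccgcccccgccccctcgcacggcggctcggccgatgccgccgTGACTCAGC
In G6pdx the match lies 57 to 49 bases before the start site and reads TGACTGAGC on the opposite strand. In Me1 it spans the first of 2 annotated start sites, from 6 bases before it to base 3, and in Pgd it covers bases 4 to 12 after the second of 2 start sites, which lies inside the gene. The window at the first Pgd start site held no match, nor did those of Tkt and Taldo1. The Idh2 window, also without a match, lies inside the gene. Windows without a match are not shown. A match describes the letters in the window only, and no binding was measured in these data.

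The FPKM of G6pdx was 64.6 and 70.9 in control, 85.2 and 86.8 in PQ, and 47.9 and 48.2 in NAC. The 3 groups did not overlap, with PQ above and NAC below both control libraries. Here and below, overlap of groups is a description without a test. The share of all tested genes whose groups did not overlap is not reported here. G6pdx rose 1.25-fold with PQ (log2 fold change 0.32, SE 0.09, adjusted p = 0.021 by edgeR with Benjamini-Hochberg adjustment). It fell with NAC to 0.69 times the control level (log2 fold change -0.54, SE 0.09, edgeR adjusted p = 3.5e-04). PQ against NAC gave 1.82-fold (log2 0.86, SE 0.09, edgeR adjusted p = 1.4e-06; 0.88 and 0.89 against the NAC libraries within the batch), the smallest adjusted p of the 10 genes in that comparison. Within the labelled batches, PQ minus control was 0.35 on the log2 scale between the Illumina libraries and 0.29 between the BGISEQ-500 libraries, where each NAC library lay at -0.60 from control. The rise with PQ lost its call without control replicate 1 (edgeR adjusted p = 0.11), PQ replicate 1 (0.099) or PQ replicate 2 (0.14) and in the BGISEQ-500 libraries alone (0.23), the range over 13 alternatives being 0.015 to 0.23. The fall with NAC and the difference between PQ and NAC kept their calls in all 13 alternatives.

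Pgd (gene 110208, chr4:149149991-149166705), 6-phosphogluconate dehydrogenase, catalyses the second NADPH-forming step and releases ribulose 5-phosphate. Its FPKM was 43.8 and 51.0 in control, 64.8 and 59.8 in PQ, and 49.1 and 48.8 in NAC. Both PQ libraries lay above the other 4, and the NAC libraries lay between the 2 control libraries. Pgd rose 1.29-fold with PQ (log2 0.37, SE 0.10, edgeR adjusted p = 0.014). The difference was 0.52 within the Illumina batch and 0.22 within the BGISEQ-500 batch on the log2 scale. The call was lost without control replicate 1 (edgeR adjusted p = 0.11), without PQ replicate 1 (0.15) and in the BGISEQ-500 libraries alone (0.40), over a range of 0.0036 to 0.40 in 13 alternatives. NAC against control gave 0.00 (SE 0.10, edgeR adjusted p = 0.99), with -0.08 and -0.11 for the NAC libraries within the batch. PQ against NAC gave 0.37 (SE 0.10, edgeR adjusted p = 0.0082), with 0.31 and 0.33 against the NAC libraries within the batch, and this call was lost without PQ replicate 1 (0.090) or NAC replicate 2 (0.054), over a range of 0.0021 to 0.090.

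Pgls (gene 66171, chr8:71592184-71596267), the lactonase between the 2 dehydrogenases, did not pass the test in any comparison. Its FPKM was 58.2 and 71.5 in control, 69.3 and 54.4 in PQ, and 56.0 and 69.6 in NAC, so the groups overlapped over nearly their whole range. The log2 fold change was -0.09 (SE 0.13) in PQ against control, -0.09 (SE 0.13) in NAC against control and 0.00 (SE 0.13) in PQ against NAC. Within the batches PQ minus control had opposite signs, 0.20 and -0.40. The summed FPKM of G6pdx, Pgls and Pgd was 167 and 193 in control, 219 and 201 in PQ, and 153 and 167 in NAC.

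In the non-oxidative branch, Rpia (gene 19895, chr6:70765720-70792175), ribose 5-phosphate isomerase, showed the largest fold difference of the 10 genes in PQ against control. Its FPKM was 4.56 and 4.98 in control, 2.81 and 2.09 in PQ, and 4.36 and 4.99 in NAC. These values rest on 80 and 89 expected counts in control, 52 and 36 in PQ, and 83 and 88 in NAC, the lowest of the 10 genes. The PQ libraries lay below the other 4, and control and NAC overlapped. Rpia fell with PQ to 0.51 times the control level (log2 fold change -0.98, SE 0.22, edgeR adjusted p = 0.0041), with -0.75 within the Illumina batch and -1.26 within the BGISEQ-500 batch. NAC against control gave -0.08 (SE 0.20, edgeR adjusted p = 0.83), with -0.22 and -0.04 within the batch. PQ against NAC gave -0.90 (SE 0.22, edgeR adjusted p = 0.0041), with -1.04 and -1.22 within the batch. Without PQ replicate 2 the adjusted p was 0.055 against control and 0.059 against NAC, the highest of 12 alternatives in both, with lowest values of 1.6e-04 and 3.4e-04.

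Tkt (gene 21881, chr14:30549131-30574724), transketolase, moves 2-carbon units between sugar phosphates and links the pathway to glycolysis. Its FPKM was 172 and 184 in control, 149 and 147 in PQ, and 112 and 129 in NAC. The groups did not overlap, and both treatments lay below control. Tkt fell with NAC to 0.66 times the control level (log2 fold change -0.61, SE 0.09, edgeR adjusted p = 9.2e-05), with -0.75 and -0.56 for the NAC libraries within the batch, and this call held in 13 of 13 alternatives. With PQ it fell to 0.82 times control (log2 -0.29, SE 0.09, edgeR adjusted p = 0.031), with -0.26 and -0.33 within the batches. The PQ call was lost in 7 of 13 alternatives, with edgeR adjusted p = 0.11 without control replicate 2, 0.18 without PQ replicate 1, 0.13 without PQ replicate 2, 0.053 with the labelled batch as a covariate and 0.14 in the BGISEQ-500 libraries alone, and with limma adjusted p = 0.088 and 0.089 at its 2 pseudocounts. The lowest of the 13 was 0.014. PQ lay 1.25-fold above NAC (log2 0.32, SE 0.09, edgeR adjusted p = 0.013), with 0.42 and 0.23 within the batch, a call lost without PQ replicate 1 (0.070), PQ replicate 2 (0.073) or NAC replicate 1 (0.18), over a range of 0.0055 to 0.18.

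Taldo1 (gene 21351, chr7:141392160-141402976), transaldolase, moves 3-carbon units and acts beside transketolase. Its FPKM was 174 and 168 in control, 195 and 195 in PQ, and 133 and 146 in NAC. The groups did not overlap, with PQ highest and NAC lowest. PQ against control did not pass the test (log2 fold change 0.16, SE 0.09, edgeR adjusted p = 0.24), with 0.12 and 0.21 within the batches. Taldo1 fell with NAC to 0.79 times control (log2 -0.34, SE 0.09, edgeR adjusted p = 0.013), with -0.37 and -0.25 within the batch. That call was lost without NAC replicate 1 (edgeR adjusted p = 0.14), with the labelled batch as a covariate (0.056) and in the BGISEQ-500 libraries alone (0.068), over a range of 0.0058 to 0.14. PQ lay 1.42-fold above NAC (log2 0.51, SE 0.09, edgeR adjusted p = 3.3e-04), with 0.58 and 0.46 within the batch, and this held in 13 of 13 alternatives.

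The summed FPKM of Rpia, Tkt and Taldo1 was 351 and 357 in control, 347 and 344 in PQ, and 249 and 280 in NAC. The NAC libraries lay below the other 4, and the PQ libraries lay just below the control libraries. The ratio of the oxidative to the non-oxidative sum was 0.475 and 0.541 in control, 0.632 and 0.584 in PQ, and 0.614 and 0.596 in NAC. Both control ratios lay below the other 4, and the NAC ratios lay between the 2 PQ ratios. In PQ the oxidative sum was above both control values, while in NAC it overlapped the control values and the non-oxidative sum was below them. These sums and ratios are descriptions without a test.

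**Figure D2:**
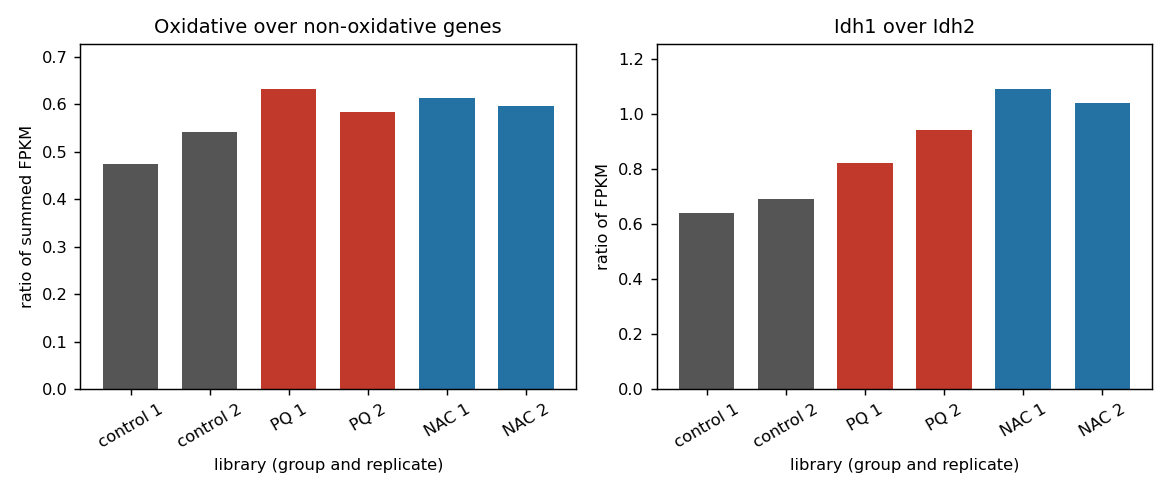
Ratio in each library of the summed FPKM of G6pdx, Pgls and Pgd to that of Rpia, Tkt and Taldo1 (left), and of Idh1 to Idh2 FPKM (right), with bars starting at 0 and coloured by group. Both ratios are lowest in the 2 control libraries, and Idh1 exceeds Idh2 in the NAC libraries, at 1.09 and 1.04.

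Me1 (gene 17436, chr9:86581363-86695914), which oxidizes malate to pyruvate in the cytosol, had an FPKM of 122 and 118 in control, 148 and 151 in PQ, and 147 and 136 in NAC. Both treatments lay above control and overlapped neither of its libraries, and the PQ libraries lay above the NAC libraries by a narrow margin. Me1 rose 1.22-fold with PQ (log2 fold change 0.29, SE 0.09, edgeR adjusted p = 0.029), with 0.23 and 0.36 within the batches. This call was lost without control replicate 2 (edgeR adjusted p = 0.11), PQ replicate 1 (0.11) or PQ replicate 2 (0.17), with the labelled batch as a covariate (0.053) and in the BGISEQ-500 libraries alone (0.10), over a range of 0.017 to 0.17. NAC against control gave 0.19 (SE 0.09, edgeR adjusted p = 0.15), with 0.29 and 0.16 within the batch. PQ against NAC gave 0.10 (SE 0.09, edgeR adjusted p = 0.43), with 0.07 and 0.20 within the batch.

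Of the 2 NADP-dependent isocitrate dehydrogenases, Idh2 fell in both comparisons with control and Idh1 was called in neither. Idh2 (gene 269951, chr7:80094845-80118608), the mitochondrial enzyme, had an FPKM of 178 and 179 in control, 136 and 136 in PQ, and 117 and 114 in NAC. The groups did not overlap, and the libraries of each group lay close together. Idh2 fell to 0.75 times control with PQ (log2 fold change -0.42, SE 0.09, edgeR adjusted p = 0.0025) and to 0.63 times control with NAC (log2 -0.68, SE 0.09, edgeR adjusted p = 2.2e-05). Within the batches PQ minus control was -0.43 and -0.41, and the NAC libraries lay at -0.65 and -0.71. The fall with PQ kept its call in 12 of 13 alternatives, the exception being the BGISEQ-500 libraries alone (edgeR adjusted p = 0.053, the highest of a range from 1.6e-04), and the fall with NAC in 13 of 13. PQ against NAC gave 0.26 (SE 0.09, edgeR adjusted p = 0.035), with 0.24 and 0.30 within the batch. It lost its call in 7 of 13 alternatives, among them each library left out in turn, with edgeR adjusted p = 0.13 without PQ replicate 1, 0.17 without PQ replicate 2, 0.096 without NAC replicate 1 and 0.17 without NAC replicate 2, against a lowest value of 0.024. The other alternatives without a call were limma with the smaller pseudocount (0.051), the labelled batch as a covariate (0.099) and the BGISEQ-500 libraries alone (0.095).

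Idh1 (gene 15926, chr1:65158616-65186479), the cytosolic and peroxisomal enzyme, had an FPKM of 114 and 124 in control, 111 and 128 in PQ, and 127 and 118 in NAC. All 3 groups overlapped. Its log2 fold change was -0.02 (SE 0.10, edgeR adjusted p = 0.93) in PQ against control, 0.00 (SE 0.10, adjusted p = 1) in NAC against control and -0.02 (SE 0.10, adjusted p = 0.92) in PQ against NAC. Within the batches PQ minus control was -0.08 and 0.04. The ratio of Idh1 to Idh2 was 0.64 and 0.69 in control, 0.82 and 0.94 in PQ, and 1.09 and 1.04 in NAC, so that the groups did not overlap and the cytosolic transcript exceeded the mitochondrial one in the NAC libraries only. The difference between the 2 genes was not tested.

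Nnt (gene 18115, chr13:119335527-119409257) couples the proton gradient of the inner mitochondrial membrane to the transfer of hydride from NADH to NADP. Its FPKM was 23.3 and 24.4 in control, 25.6 and 24.5 in PQ, and 24.1 and 24.8 in NAC, the narrowest range of the 10 genes relative to its mean. Both PQ libraries lay above both control libraries, narrowly at the nearest, and NAC overlapped both groups. The log2 fold changes were 0.04, -0.03 and 0.06 (SE 0.09 each) in PQ against control, NAC against control and PQ against NAC, with edgeR adjusted p of 0.83, 0.87 and 0.64, and PQ minus control was 0.04 and 0.03 within the batches. Its reads were listed under a coding and a noncoding transcript together, so these forms cannot be told apart. The values do not show whether the RNA encoded a working enzyme.

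**Figure D3:**
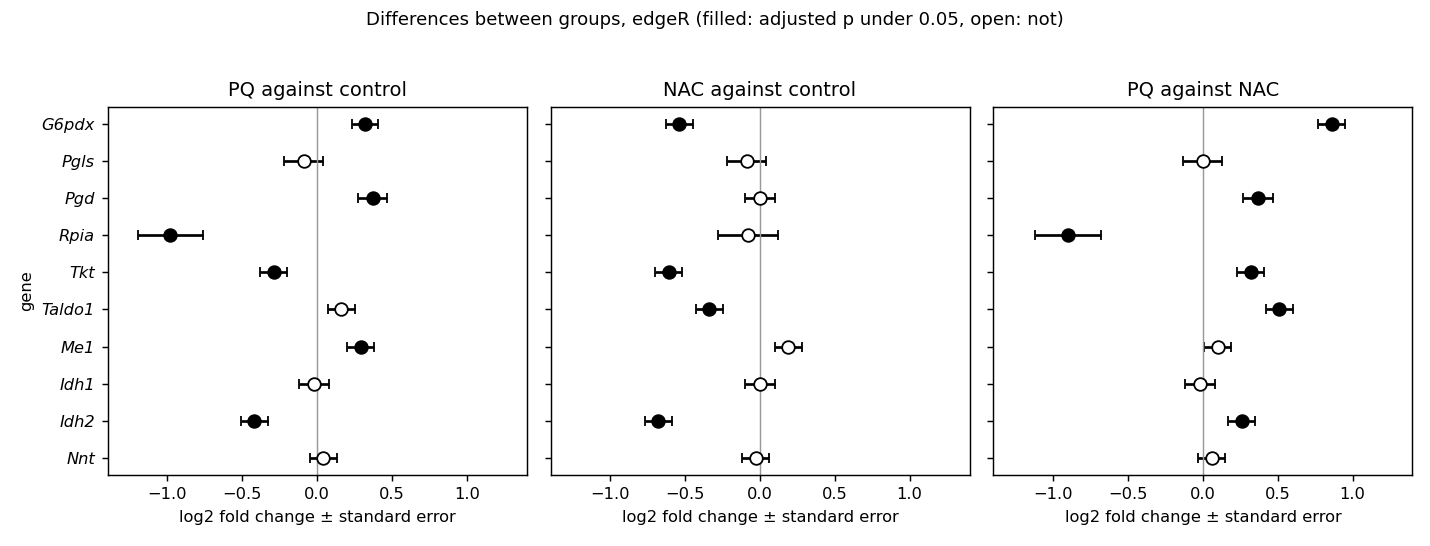
Log2 fold change with standard error of each gene in the 3 comparisons by edgeR, filled where the adjusted p was under 0.05 and open otherwise. G6pdx lies at 0.32 with PQ and -0.54 with NAC, Tkt and Idh2 are below 0 in both comparisons with control, and Rpia is near -0.98 with PQ only.

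Summed over the 10 genes, FPKM was 954 and 996 in control, 986 and 984 in PQ, and 817 and 838 in NAC. PQ lay within the control range, and both NAC libraries lay below it. The median log2 fold change of the 10 genes was 0.01 with PQ and -0.09 with NAC, beside 0.00 over all tested genes in each comparison, and the median absolute change was 0.29 and 0.14, beside 0.19 and 0.18.

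Of 16 other genes of the pentose phosphate pathway and of NADPH production, 11 were tested, 1 was higher and 2 were lower with PQ, and 1 was higher and 4 were lower with NAC. The largest differences lay in folate metabolism, parts of which make NADPH. The cofactor used by each enzyme was not measured, so these values do not show NADPH output. The FPKM of Mthfd2, the mitochondrial methylenetetrahydrofolate dehydrogenase, was 67.0 and 41.0 in control, 18.4 and 17.3 in PQ, and 17.6 and 15.8 in NAC. It fell in both comparisons (log2 fold change -1.63 with PQ and -1.74 with NAC, edgeR adjusted p = 3.1e-06 and 6.2e-07). Aldh1l2, the mitochondrial formyltetrahydrofolate dehydrogenase, fell too (-0.55 and -1.48, edgeR adjusted p = 0.0017 and 6.6e-08), whereas its cytosolic counterpart Aldh1l1 rose with PQ (1.17, edgeR adjusted p = 0.0035) at an FPKM of 1.11 and 1.34 in control and 3.28 and 2.36 in PQ. With NAC, the mitochondrial malic enzyme Me2 fell (-0.84), as did H6pd, the hexose 6-phosphate dehydrogenase of the endoplasmic reticulum (-0.81), while Glud1 rose (0.40). G6pd2 and Tktl2 were not listed in any library, and Tktl1, Shpk and Me3 lay under the mean FPKM of 1 needed for the test. Aldh1l1 and Aldh1l2 lost their PQ calls without PQ replicate 1 (edgeR adjusted p = 0.091 and 0.059), and Glud1 and H6pd their NAC calls without NAC replicate 1 (0.055 and 0.074). In PQ against NAC, 4 of the 11 were higher, led by Aldh1l1 (1.66), Me2 (0.96) and Aldh1l2 (0.93), and 2 were lower, Glud1 (-0.65) and Mthfd1 (-0.60). The fourth higher was H6pd, a call lost without PQ replicate 1 (edgeR adjusted p = 0.18) or NAC replicate 1 (0.26).

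Enzymes that supply or use the sugar phosphates of the pathway were lower in part with both treatments. Of 14 such genes 12 were tested, and none was higher and 4 were lower with PQ, namely Prps1 (-0.89), which converts ribose 5-phosphate to phosphoribosyl pyrophosphate, Dera (-0.64), Hk2 (-0.60) and Pfkl (-0.34). With NAC none was higher and 8 were lower, led by Pfkp (-1.16), Hk2 (at 0.50 times control), Gpi1 (-0.79) and Dera (-0.56). Pfkl lost its PQ call without control replicate 2 (edgeR adjusted p = 0.28), PQ replicate 1 (0.18) or PQ replicate 2 (0.14), and Dera lost its calls without PQ replicate 1 (0.072) and NAC replicate 1 (0.25). Their median log2 fold change was -0.05 with PQ and -0.48 with NAC. In PQ against NAC 7 were higher, led by Pfkp (1.18), Gpi1 (0.74) and Hk1 (0.55), and 1 was lower, Prps1 (-0.84). The count of 7 became 3 without PQ replicate 2, where Hk2 (edgeR adjusted p = 0.17), Pgm2 (0.057), Pfkfb3 (0.057) and Tigar (0.063) lost their calls, and 4 without NAC replicate 1, where Hk2 (0.21), Pfkfb3 (0.12) and Tigar (0.076) did. The 8 lower with NAC became 5 without NAC replicate 1. Gpi1, Pfkl, Pfkfb3 and Prps1 had fractional counts in all 6 libraries, so their counts are partly estimates. The FPKM of Gpi1 ranged from 833 to 1720.

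Genes around Me1 and the isocitrate dehydrogenases were also counted. Of 8 genes of the citrate and malate shuttle 7 were tested, and edgeR called none with PQ, also before adjustment, while Got1 (-0.83) and Slc25a1 (-0.64), the mitochondrial citrate carrier, fell with NAC. Of 11 genes of the NAD-linked tricarboxylic acid cycle, edgeR called none with PQ (2 were lower before adjustment), and Ogdh (-0.32) and Cs (-0.27) fell with NAC. Ogdh lost its call without NAC replicate 1 (edgeR adjusted p = 0.085) or NAC replicate 2 (0.11), and Cs without control replicate 2 (0.21), NAC replicate 1 (0.16) or NAC replicate 2 (0.17). In PQ against NAC, 3 shuttle genes were higher, Slc25a1 (0.78), Got1 (0.70) and Slc25a11 (0.32), and Aco1 was lower (-0.29). Slc25a11 lost its call without PQ replicate 1 (edgeR adjusted p = 0.27) or NAC replicate 1 (0.20), and Aco1 without any 1 of the 4 libraries (0.084 to 0.22). Also in PQ against NAC, 2 cycle genes were higher, Fh1 (0.28) and Mdh2 (0.25), both calls that were lost without any 1 of the 4 libraries (edgeR adjusted p = 0.052 to 0.35 and 0.064 to 0.32).

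Among 21 genes whose products consume NADPH, 18 were tested. With PQ, 3 were higher and none was lower by edgeR (1 before adjustment), namely the inducible nitric oxide synthase Nos2 (0.63), the thioredoxin reductase Txnrd1 (0.35) and the aldehyde reductase Akr1a1 (0.32). With NAC, Nos2 (-1.32) and Txnrd3 (-0.54) were lower, and none was higher by edgeR or DESeq2 (2 by edgeR before adjustment, and 1 by limma). The PQ calls were lost for Nos2 without control replicate 1 (edgeR adjusted p = 0.052) or PQ replicate 2 (0.13), for Txnrd1 without PQ replicate 1 (0.12), and for Akr1a1 without control replicate 1 (0.12), PQ replicate 1 (0.18) or PQ replicate 2 (0.092). With PQ, 7 were higher without control replicate 2, and 1 was higher and 1 lower without control replicate 1. Txnrd3 lost its NAC call without any 1 of the 4 libraries (0.088 to 0.23). The direct comparison of PQ with NAC gave 8 higher, led by Nos2 (1.94), and 2 lower, Blvrb (-0.51) and Cbr3 (-0.46). Without PQ replicate 1, Blvrb (edgeR adjusted p = 0.13) and Cbr3 (0.076) lost their calls, as did Blvrb without NAC replicate 1 (0.052) and Cbr3 without NAC replicate 2 (0.12). The count of 8 became 4 without NAC replicate 2, where Nqo1 (0.27), Sqle (0.10), Dhcr7 (0.20) and Ptgr1 (0.055) lost their calls, and 5 without PQ replicate 2, where Nqo1 (0.45), Sqle (0.27) and Dhcr7 (0.15) did.

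The NRF2 targets outside the 10 enzymes, genes of the antioxidant response, were compared because G6pdx, Pgd, Tkt, Taldo1 and Me1 are known targets of the same factor. Of 10 tested, 5 were higher and none lower with PQ, led by Hmox1 (1.02), Osgin1 (1.01), Srxn1 (0.73) and Gsta4 (0.41). The FPKM of Hmox1, heme oxygenase 1, was 37.2 and 40.3 in control, 89.1 and 71.3 in PQ, and 27.0 and 31.5 in NAC. With NAC none was higher and 4 were lower, namely Abcc1 (-0.87), Srxn1 (-0.46), Hmox1 (-0.45) and Gclc (-0.44). Osgin1 lost its PQ call without control replicate 1 (edgeR adjusted p = 0.19) or PQ replicate 1 (0.60). Gsta4 and Txnrd1 also lost theirs without PQ replicate 1, at log2 fold changes of 0.38 and 0.32. Without NAC replicate 1, Hmox1 (0.14) and Srxn1 (0.12) lost their NAC calls, Srxn1 also without control replicate 2 (0.13), and the number lower was 2. Between PQ and NAC, 9 were higher in PQ and none was lower, and without NAC replicate 2 the number higher was 6. Of the 5 known targets among the enzymes, G6pdx, Pgd and Me1 were called higher with PQ, Taldo1 was not called and Tkt was lower. Each of these called enzymes lost its PQ call in some alternatives, as given above for each gene.

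**Figure D4:**
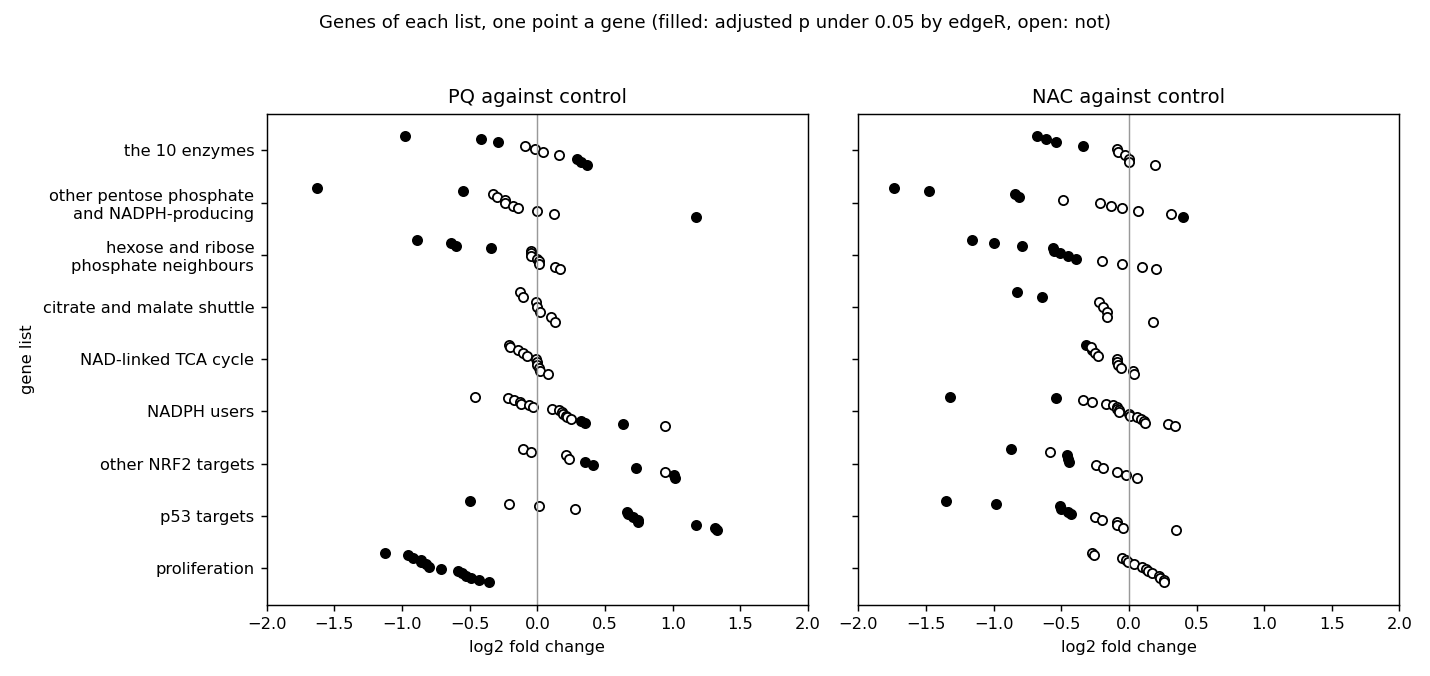
Log2 fold change of each tested gene of the 10 enzymes and of 8 other lists in PQ against control (left) and NAC against control (right), 1 point per gene, filled where the edgeR adjusted p was under 0.05. The 10 enzymes spread to both sides of 0 with PQ, while 14 of 14 proliferation genes lie below 0 with PQ and both NRF2 and p53 targets lie mostly above it.

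Other features of the cultures moved together with these results, and their part in the enzyme differences was not tested. All 14 proliferation genes were lower in PQ against control (median log2 fold change -0.75, led by Mki67 at -1.13, Aurkb at -0.96 and Mcm5 at -0.92) and in PQ against NAC, and edgeR called none in NAC against control (4 higher and 2 lower before adjustment, and 1 lower by DESeq2), with 2 higher by edgeR without control replicate 2. Without PQ replicate 1, Bub1, Tyms and Ccnb1 lost their calls against control (edgeR adjusted p = 0.055, 0.42 and 0.12), as did Tyms without control replicate 2 (0.080). Against NAC, Rrm2 lost its call without PQ replicate 1 (edgeR adjusted p = 0.065), PQ replicate 2 (0.062) or NAC replicate 1 (0.090), Tyms without PQ replicate 1 (0.37) or NAC replicate 1 (0.22), and Bub1 without PQ replicate 1 (0.051). Their summed FPKM was 1150 and 1200 in control, 712 and 758 in PQ, and 1337 and 1254 in NAC. Of 12 p53 targets, 8 were higher and 1 was lower with PQ (Sesn2 at -0.50), led by Ccng1 (1.33), Trp53inp1 (1.31) and Cdkn1a (1.17), and with NAC none was higher and 6 were lower, led by Sesn2 (-1.35) and Cdkn1a (-0.98), with 1 higher without control replicate 2 and 4 lower without NAC replicate 1. Sesn2 lost its PQ call without control replicate 1 (edgeR adjusted p = 0.41), PQ replicate 1 (0.079) or PQ replicate 2 (0.16). Between PQ and NAC, 10 were higher in PQ and 1 was lower, Sesn1 (-0.56), a call lost without PQ replicate 1 (0.063). The p53 target Tigar, whose product diverts glucose 6-phosphate to the pentose phosphate pathway, had an FPKM of 6.46 and 6.15 in control, 6.36 and 6.55 in PQ, and 4.43 and 4.75 in NAC, and was lower with NAC (-0.51, edgeR adjusted p = 0.015), a call lost without control replicate 1 (0.064), NAC replicate 1 (0.12) or NAC replicate 2 (0.056).

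Calls in these lists were also lost in alternatives other than leaving out 1 library. With the labelled batch as a covariate they were Cs (edgeR adjusted p = 0.093), Ogdh (0.074), Txnrd3 (0.094) and Phlda3 (0.064) in NAC against control, and H6pd (0.075), Aco1 (0.12), Slc25a11 (0.066), Fh1 (0.11), Mdh2 (0.15), Pgm2 (0.052), Blvrb (0.050) and Tyms (0.16) in PQ against NAC. With only the 4 libraries compared in the edgeR fit, Cs (0.069) and Txnrd3 (0.063) lost their NAC calls. DESeq2 did not call Osgin1 (adjusted p = 0.16), Sesn2 (0.056) and Tyms (0.061) in PQ against control, Txnrd3 (0.19) and Phlda3 (0.050) in NAC against control, or H6pd (0.057), Aco1 (0.061), Slc25a11 (0.051), Fh1 (0.067), Nqo1 (0.14) and Tyms (0.055) in PQ against NAC.

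By limma on log2(FPKM + 1), Pfkl (adjusted p = 0.14), Nos2 (0.056), Osgin1 (0.12), Sesn2 (0.12) and Tyms (0.092) were not called in PQ against control, nor were Pfkl (0.066), Cs (0.12), Ogdh (0.071), Txnrd3 (0.083), Hmox1 (0.061), Srxn1 (0.064) and Phlda3 (0.083) in NAC against control, or H6pd (0.085), Hk2 (0.061), Aco1 (0.052), Slc25a11 (0.090), Fh1 (0.084), Mdh2 (0.086), Dhcr7 (0.11), Nqo1 (0.074) and Sqle (0.073) in PQ against NAC, and the smaller pseudocount lost the same calls. In the BGISEQ-500 libraries alone, with 1 control and 1 PQ library, edgeR did not call Aldh1l1 (adjusted p = 0.17), Aldh1l2 (-0.28, 0.24), Txnrd1 (0.17), Akr1a1 (0.33), Gsta4 (0.11), Osgin1 (0.23, 0.84), Sesn2 (0.40), Bub1 (0.050), Tyms (0.39) and Ccnb1 (0.31) in PQ against control, Tigar (0.071), Txnrd3 (0.18) and Mdm2 (0.055) in NAC against control, or H6pd (0.12), Slc25a11 (0.20), Mdh2 (0.29), Blvrb (0.093), Osgin1 (0.064) and Tyms (0.33) in PQ against NAC.

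Cell type markers were also compared. The neural stem and progenitor markers summed to 3410 and 3474 FPKM in control, 3763 and 3819 in PQ, and 2689 and 2612 in NAC, of which Vim took between 1362 and 2647, and Hes5 was at most 0.16 in every library. Of the 8 tested, 1 was higher and 2 were lower with PQ (Nes at 0.34, Slc1a3 at -0.48 and Sox2 at -0.35), and 1 was higher and 3 were lower with NAC (Slc1a3 at 0.29, Vim at -0.75, Sox2 at -0.31 and Nes at -0.28). Nes lost its PQ call without PQ replicate 1 (edgeR adjusted p = 0.081) or PQ replicate 2 (0.052) and its NAC call without any 1 of the 4 libraries (0.052 to 0.15). Sox2 lost its PQ call without control replicate 1 (0.15), PQ replicate 1 (0.12) or PQ replicate 2 (0.071) and its NAC call without control replicate 1 (0.25), NAC replicate 1 (0.16) or NAC replicate 2 (0.086). Slc1a3 lost its NAC call without control replicate 2 (0.25), NAC replicate 1 (0.15) or NAC replicate 2 (0.11). With the labelled batch as a covariate the NAC calls of Slc1a3 (edgeR adjusted p = 0.064), Sox2 (0.16) and Nes (0.094) were lost as well. Between PQ and NAC, Vim (0.94), Nes (0.62) and Sox9 (0.43) were higher in PQ and Slc1a3 (-0.77), Egfr (-0.47) and Pax6 (-0.38) were lower. Of these calls, Sox9 was lost without NAC replicate 1 (edgeR adjusted p = 0.061), and Pax6 without PQ replicate 1 (0.085), PQ replicate 2 (0.13) or NAC replicate 1 (0.24) and by DESeq2 (0.071). Of 6 astrocyte markers, Gja1 was higher with PQ (0.31), a call lost without control replicate 2 (edgeR adjusted p = 0.076), PQ replicate 1 (0.055) or PQ replicate 2 (0.19), and with NAC 4 were higher, Aqp4 (1.76), Gfap (1.23), Aldoc (1.09) and Slc1a2 (0.65), while Gja1 was lower (-0.43). PQ lay below NAC in Aqp4 (-1.91), Gfap (-1.28), Aldoc (-1.10) and Slc1a2 (-0.42) and above it in Gja1 (0.74), and of these 5 calls only that of Slc1a2 was lost with 1 library left out (without PQ replicate 1, edgeR adjusted p = 0.064). Their sum was 177 and 178 in control, 204 and 220 in PQ, and 209 and 209 in NAC, with Gja1 the most abundant in 5 libraries and Aldoc in NAC replicate 2.

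Of 7 oligodendrocyte lineage markers 3 were tested, with none called by edgeR with PQ (1 lower before adjustment) and 2 higher with NAC, Olig1 (0.41) and Pdgfra (0.40). They summed to 651 and 753 FPKM in control, 767 and 666 in PQ, and 815 and 924 in NAC, nearly all from Olig1 and Olig2. Sox10 was at most 0.04, and Mog was not listed in any library. Both NAC calls were lost without control replicate 1 (edgeR adjusted p = 0.18 and 0.067) and without NAC replicate 2 (0.23 and 0.16), and with the labelled batch as a covariate (0.066 and 0.051). Pdgfra (-0.49) and Olig2 (-0.26) were lower in PQ against NAC, and Olig2 lost this call without PQ replicate 2 (edgeR adjusted p = 0.32), NAC replicate 1 (0.12) or NAC replicate 2 (0.13) and with the batch covariate (0.054). Of 7 neuronal markers, only Map2 reached the test and it made up nearly all of the list's sum. It was not called with PQ (-0.09) and was higher with NAC (0.77) and lower in PQ against NAC (-0.86). The list summed to 38.4 and 36.3 FPKM in control, 34.0 and 35.1 in PQ, and 65.5 and 59.0 in NAC. Rbfox3 was not listed in any library. Of the neuronal markers under the filter, Tubb3 was lower in both NAC libraries than in control (2.38 and 1.30 FPKM in control, 0.72 and 0.47 in PQ, and 0.32 and 0.44 in NAC), as was Syt1 (0.17 and 0.23 in control, 0.26 and 0.26 in PQ, and 0.06 and 0.11 in NAC), so the neuronal markers did not move one way. Microglia and blood markers summed to at most 4.67 FPKM in any library, mostly P2ry12. P2ry12 was higher with NAC (1.18), a call lost without NAC replicate 1 at a log2 fold change of 0.86. Endothelial markers summed to at most 0.58, mostly Pecam1, and neither Hbb-bs nor Cldn5 was listed in any library. Mesenchymal and mural markers summed to between 3.62 and 5.55 FPKM, mostly Col3a1, which was lower with PQ (-0.90). It was also lower in PQ against NAC (-0.53), a call lost without PQ replicate 1 (edgeR adjusted p = 0.056) or NAC replicate 1 (0.11), and P2ry12 was not called there (-0.63). Dcn, under the filter, was higher in both PQ libraries than in control, at 0.28 and 0.06 FPKM in control and 1.27 and 0.46 in PQ, and Col1a1 overlapped, at 0.21 and 0.38 in control and 0.55 and 0.37 in PQ. Limma at both pseudocounts did not call Nes (adjusted p = 0.089 and 0.093), Sox2 (0.096 and 0.097) and Olig1 (0.059 and 0.055) in NAC against control, nor did edgeR call Nes with only the 4 libraries compared in the fit (0.055). In the BGISEQ-500 libraries alone, edgeR lost the PQ calls of Nes (adjusted p = 0.17), Slc1a3 (0.16) and Sox2 (0.41) and the NAC calls of Nes (0.078), Sox2 (0.33), Pdgfra (0.071) and Olig1 (0.19). The part of all these marker differences in the enzyme results was not tested.

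The deleted locus was checked in every library. Cdkn2a, which carries Ink4a and Arf, was listed at an FPKM of 16.6 and 19.1 in control, 13.7 and 15.9 in PQ, and 14.4 and 15.7 in NAC, and its neighbour Cdkn2b at 10.8 and 12.9, 11.6 and 13.4, and 8.14 and 10.6. With all libraries and the planned filter, neither was called in any comparison by edgeR, DESeq2 or limma, and before adjustment 1 was lower in NAC against control and 1 higher in PQ against NAC by edgeR. The latter was called by edgeR in 5 alternatives: with no filter, the batch covariate, only the 4 libraries compared, without NAC replicate 2 and in the BGISEQ-500 libraries alone. The tables give 1 value per gene, so reads from the deleted and the remaining exons cannot be told apart.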

How the data were processed

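For each of the 6 libraries, the authors deposited expected counts, estimates that need not be whole, and FPKM per gene. Per the labels, the notes of control replicate 1 and PQ replicate 1 name TopHat2 2.0.11 and Cufflinks 2.1.1 on mm9, and those of the other 4 HISAT2 2.0.4, Bowtie2 2.2.5 and RSEM on mm10. The paper names a stranded Illumina library kit. Use of strand in counting was not given in the sources used here, so overlapping genes are uncertain. None of the 10 genes had a fractional count, while 23.2% of all tested genes had one in at least 1 library. Genes not listed in a table were taken as 0. For genes listed in none, absence from the annotation and a lack of reads were not told apart. Symbols and coordinates came from the RefSeq table of GRCm38.p6 (99.7% of identifiers matched).

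Expected counts were rounded and tested with edgeR 4.0.16 in R 4.3.3 (TMM, quasi-likelihood test, 6 libraries, no covariates) wherever FPKM averaged 1 or more. The Benjamini-Hochberg adjustment ran over all 11717 genes, with calls under 0.05. The members and lists were chosen with earlier results of these data known. Beside the 10 enzymes, the rule named at most 4 called genes per list and comparison, largest change first. Genes named beyond it, for a lost call, a small count or their level, were chosen after their values were seen. Some listed genes are not reported here. Mthfd2, Aldh1l1, Hmox1 and Tigar were picked for per-library values after these had been seen. Alternatives were DESeq2 1.42.0, its size factors in edgeR, limma 3.58.1 on log2(FPKM + 1) and log2(FPKM + 0.1), other filters, the labelled batch as a covariate, fewer libraries in the fit and leaving out each library. The BGISEQ-500 libraries alone were added after seeing the data. Scripts were tested on simulated data with 200 genes changed 2-fold in PQ and no batch difference. There edgeR recovered 200 of them in PQ against control and called 4 unchanged genes. The enzyme changes reported here were smaller than 2-fold, so this test does not show how well such changes are recovered. Replicate libraries differed by more than sampling noise (chi-square per degree of freedom 4.11 to 6.91).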

Additional observations from a re-analysis of the deposited data

How the results depend on the processing

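Of 387 values of the 10 genes under the alternatives, 295 kept their direction and their side of the threshold, 39 stayed uncalled on either side of 0 (-0.17 to 0.16) where the value with all libraries was 0.00 (Pgd and Idh1 in NAC against control, Pgls in PQ against NAC), 37 kept their direction and lost their call, and 16 changed sign, all of them uncalled and close to 0. Leaving out 1 library each gave 866 to 2206 genes and 2 to 4 of the 10 enzymes called in PQ against control (2250 and 6 with all libraries), 1286 to 2126 genes in NAC against control (2186), and 2343 to 2769 genes and 3 to 4 enzymes in PQ against NAC (3708 and 6). The BGISEQ-500 libraries alone, an alternative chosen after seeing the data, gave 993 genes and 1 enzyme in PQ against control. Fewer libraries entered these fits. Sign changes on the log2 scale in PQ against control were Idh1 at 0.01 with limma at both pseudocounts and at 0.05 in the BGISEQ-500 libraries. In NAC against control Nnt was at 0.03 and 0.04 with limma, and in PQ against NAC Idh1 was at 0.06 with the labelled batch as a covariate and 0.10 in the BGISEQ-500 libraries. The cause was not tested. With 1 library left out, PQ against control ranged from -0.26 to 0.06 for Pgls and -0.14 to 0.10 for Idh1, NAC against control from -0.25 to 0.05 for Pgls and -0.17 to 0.01 for Rpia, and PQ against NAC from -0.14 to 0.10 for Idh1. A minimum mean FPKM of 5 left Rpia without a value. With 36 to 89 counts per library, Rpia was the gene most limited by depth. Libraries were not paired by replicate number, because the labels carry no shared replicate numbers and the numbers used here only name libraries. The labelled batch as a covariate, a block shared by 1 control and 1 PQ library each, left 4 of the 10 enzymes called in PQ against control, 3 in NAC against control and 5 in PQ against NAC. Of all 11717 tested genes, that fit called 2067 in PQ against control and 1689 in NAC against control. Without the covariate these counts were 2250 and 2186. In PQ against NAC it was 3708 without the covariate, and the count with it is not reported here.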

Other observations

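Genes of fatty acid synthesis, which draws on NADPH, were compared as a further list. Of 8 tested, Thrsp was higher (log2 fold change 0.72, edgeR adjusted p = 0.0083) and Acaca was lower (-0.33, edgeR adjusted p = 0.024) with PQ. Both calls were lost without PQ replicate 1 (0.12 and 0.28), and that of Acaca without control replicate 2 (0.15) and by limma (adjusted p = 0.087 and 0.088 at its 2 pseudocounts). In the BGISEQ-500 libraries alone neither was called by edgeR (adjusted p = 0.16 and 0.14). With NAC none was higher, and the desaturases Scd1 (-0.71, edgeR adjusted p = 3.5e-05) and Scd2 (-0.48, edgeR adjusted p = 0.0015) were lower, and without control replicate 1 the number lower was 4, while without control replicate 2 there was 1 higher. In PQ against NAC, 3 were higher, Scd1 (0.87), Thrsp (0.74) and Scd2 (0.36), and none was lower. Thrsp lost this call without PQ replicate 1 (edgeR adjusted p = 0.060), and Scd2 without PQ replicate 2 (0.093) or NAC replicate 1 (0.096). The FPKM of Scd1 was 195 and 232 in control, 231 and 255 in PQ, and 134 and 136 in NAC, with both NAC libraries below the other 4. Fatty acid synthase, Fasn, overlapped between groups, at 38.7 and 58.2 in control, 45.6 and 41.9 in PQ, and 45.2 and 55.8 in NAC.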
